A study of Vitis vinifera with 12 samples.

Results

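In developing Flame Seedless grape berries, 78 of 22580 gene models had their low point in the middle of the period studied, at 50 or 60 days after full bloom, between higher levels at 40 and 80 days. They were chosen by their own levels in all 12 libraries. Group means were taken on the log2(FPKM + 1) scale, where FPKM is the number of fragments scaled to the length of the gene model and to the total of mapped fragments. A member had its mean at 50 or at 60 days at least 1 below the means at 40 and at 80 days. All 3 libraries of that middle age also lay below every 40-day and 80-day library, and the mean FPKM at 40 and at 80 days was at least 3. The low point itself is therefore what the choice fixed, and its depth and shape are given as a description without a test.

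Flame Seedless is a red table grape without developed seeds. The samples were fruit RNA of this 1 cultivar at ages of 40, 50, 60 and 80 days, with no treatment stated and 3 libraries per age, lettered a, b and c. The labels' protocol states that replicate extracts were combined before library preparation, so the 3 libraries of an age may not be separate plants, and p-values measure only the spread between libraries. The second cultivar of the study was not analysed here. In bulk fruit RNA, fewer cells of a type and less RNA per cell cannot be told apart.

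A grape berry first grows by cell division and expansion, then pauses in a lag phase, and then softens, colours and loads sugar from veraison on. Many transcripts rise or fall in one direction along this course. A transcript that falls and then returns follows a different course, and the gene models here are of that kind. The identifiers come without gene names in the file, and 0 of the 78 matched an entry of the RefSeq table for grape assembly ASM3070453v1. No gene name, role, coordinate or sequence is therefore given, no markers of fruit tissue could be checked, and identifiers stand exactly as the file writes them.

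Libraries of an age were alike across gene models, with Pearson correlations of 0.977 to 0.984 on the log2(FPKM + 1) scale over the 14579 gene models tested, which are not independent replicates. Ages were ordered along the first principal component (60.0% of the variance), on which 60-day replicate c, at 10.6, stood nearer to the 50-day libraries, at -16.1 to -4.95, than replicates a and b did, at 28.8 and 35.1. Without 60-day replicate c, 73 of the 78 gene models still met the rule and 10 others joined them. No read depth can be read from the file.

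The 78 gene models divided into 2 courses. At 50 days only, 30 gene models met the rule. At 60 days only, 46 met it, and 2 met it at both ages. Of the 10754 gene models with at least 3 FPKM at both end ages, 114 had a drop of at least 1 below both ends, and the absence of overlap between libraries reduced these to the 78. The drop is the lower of the 40-day and 80-day means minus the mean at the low age. It had a median of 1.32 (log2), and 26 gene models dropped by at least 1.5 and 11 by at least 2. Over the 12 libraries, members averaged 2.34 to 663 FPKM with a median of 22.2 FPKM, close to the median of 22.7 FPKM for all gene models with 3 FPKM at both ends. At their low age 12 members averaged under 1 FPKM, 34 between 1 and 10 FPKM, 31 between 10 and 100 FPKM, and 1 more than 100 FPKM.

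**Figure D1:**
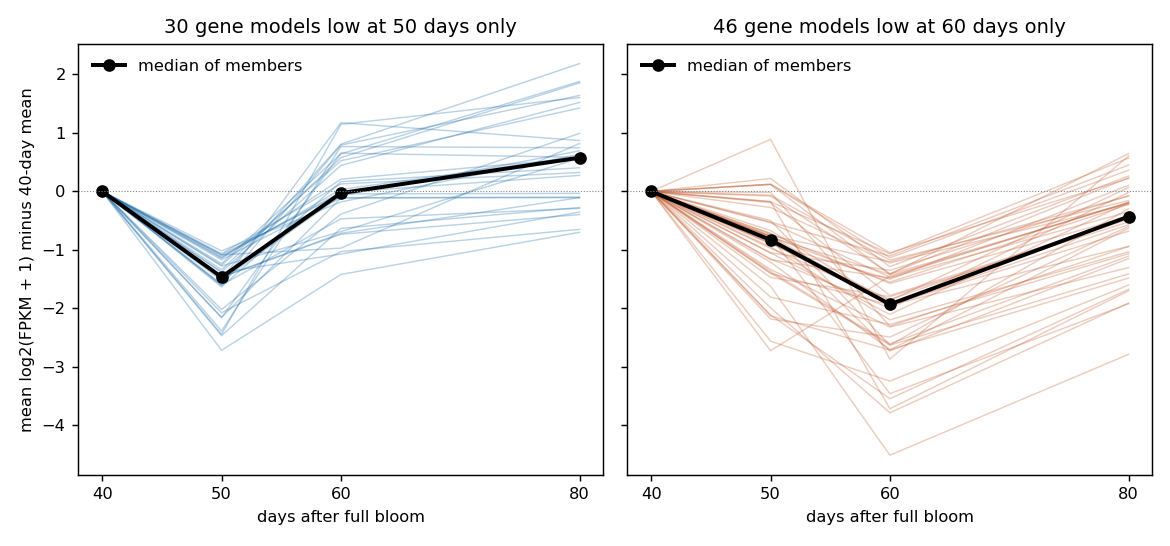
Mean log2(FPKM + 1) of each gene model minus its own 40-day mean, against days after full bloom, for the 30 gene models low at 50 days only (left) and the 46 low at 60 days only (right). Thin lines are gene models and the black line is their median, which at 60 days is back near 0 on the left and at its lowest, -1.93, on the right.

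The median drop was 1.35 (log2) in gene models low at 50 days and 1.31 in those low at 60 days. The choice of a low age fixes part of the shape of each course. In gene models low at 50 days, the median difference from 40 days was -1.46 at 50 days, -0.03 at 60 days and 0.58 at 80 days. In 28 of the 30, all 60-day libraries lay above all 50-day libraries, and in the other 2 they overlapped. Over all tested gene models, the libraries of these ages did not overlap, in either direction, in 38.7%. The count of 28 follows in part from the choice of a low age. The mean at 60 days had come back to between the end ages in 11, lay above both ends in 3, and was still below both in 16.

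The deepest of these was VIT_02s0025g00280. It had 9.92, 10.9 and 17.3 FPKM at 40 days, 2.14, 1.51 and 0.878 FPKM at 50 days, 40.9, 12.5 and 44.6 FPKM at 60 days, and 50.9, 47.6 and 25.5 FPKM at 80 days. Its 50-day libraries overlapped none of the others, and its drop was 2.44 (log2). VIT_04s0008g01110 had 4.76, 8.71 and 14.4 FPKM at 40 days, 1.18, 0.962 and 0.413 FPKM at 50 days, 19.9, 8.63 and 20.1 FPKM at 60 days, and 17.1, 24.7 and 7.78 FPKM at 80 days. VIT_16s0022g00510 had 30.2, 47.5 and 91.7 FPKM at 40 days, 11.8, 11.1 and 9.20 FPKM at 50 days, 107, 40.5 and 121 FPKM at 60 days, and 89.9, 88.6 and 56.9 FPKM at 80 days. In all 3 of these gene models, 60-day replicate b was well below replicates a and c, while 40-day replicate c was the highest of its age.

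VIT_08s0007g00130 returned to its earlier level after the low point. It had 99.9, 141 and 209 FPKM at 40 days, 38.0, 24.2 and 33.7 FPKM at 50 days, 143, 82.6 and 197 FPKM at 60 days, and 220, 108 and 98.5 FPKM at 80 days. The libraries of the other 3 ages overlapped one another, and only those of 50 days stood apart. Grape_newGene_2105, a gene model the authors labelled as new, averaged 13.1 ± 2.48, 1.68 ± 1.16, 8.51 ± 3.995 and 12.1 ± 8.22 FPKM at 40, 50, 60 and 80 days (SD, n = 3 each). Among abundant members, VIT_00s0194g00030 averaged 215 ± 41.6, 94.1 ± 2.28, 199.7 ± 39.6 and 200.5 ± 31.7 FPKM at the 4 ages in order. VIT_11s0016g04080 averaged 164 ± 63.1, 70.9 ± 10.4, 189 ± 60.6 and 233 ± 23.7 FPKM.

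Gene models low at 60 days were, by their median, partly down at 50 days, which the choice of a low age fixes in part. Their median difference from 40 days was -0.83 at 50 days, -1.93 at 60 days and -0.43 at 80 days. In 30 of the 46, all 60-day libraries lay below all 50-day libraries, and in 16 they overlapped. The share without overlap over all tested gene models was 38.7%, counted in either direction. The counts of 30 and 16 follow in part from the choice of a low age. The 50-day mean was already below both end ages in 30, lay between them in 14 and above both in 2.

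VIT_14s0066g00700 had the largest drop of all, 2.87 (log2). It had 62.0, 64.6 and 26.0 FPKM at 40 days, 103, 43.5 and 153 FPKM at 50 days, 11.0, 2.90 and 5.12 FPKM at 60 days, and 47.5, 74.1 and 107 FPKM at 80 days. Its 50-day mean was the highest of the 4 ages, and its 60-day libraries lay far below the rest. VIT_08s0007g04240 had 39.9, 43.8 and 36.3 FPKM at 40 days, a very uneven 45.1, 9.30 and 99.5 FPKM at 50 days, 2.57, 1.35 and 2.60 FPKM at 60 days, and 7.55, 11.0 and 18.6 FPKM at 80 days. In both, 50-day replicate b was the lowest library of its age.

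VIT_14s0006g01580 was the most abundant of the 78. It had 836, 915 and 1165 FPKM at 40 days, 647, 286 and 1194 FPKM at 50 days, 280, 202 and 289 FPKM at 60 days, and 558, 822 and 763 FPKM at 80 days. The 286 FPKM of 50-day replicate b lay within the range of the 60-day libraries, whereas replicate c of that age was the highest of all 12. VIT_07s0031g00350 was more even at 50 and 60 days, but not at 40 or 80 days. It averaged 102 ± 19.7, 48.9 ± 12.8, 22.6 ± 0.953 and 95.3 ± 46.3 FPKM at the 4 ages in order. VIT_01s0137g00790 averaged 17.1 ± 13.8, 2.25 ± 0.784, 1.25 ± 0.957 and 12.8 ± 15.0 FPKM, with 2.40 to 30.0 FPKM among its 80-day libraries and 3.92 to 31.5 FPKM among those of 40 days.

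VIT_14s0060g02130 was counted as low at 60 days, but its lowest log2 mean was at 50 days. It had 14.5, 14.4 and 19.2 FPKM at 40 days, 15.7, 0 and 0 FPKM at 50 days, 5.58, 5.73 and 4.39 FPKM at 60 days, and 20.8, 12.8 and 9.79 FPKM at 80 days. At 50 days replicates b and c were listed at 0 while replicate a was as high as at 40 days, so that age overlapped the ends and the 60-day libraries alone met the rule, with a drop of 1.25. The 2 gene models that met the rule at both middle ages were VIT_18s0001g08300, with 21.2 ± 8.41, 4.47 ± 0.827, 3.62 ± 0.494 and 10.5 ± 3.82 FPKM at the 4 ages, and VIT_14s0066g01150, with 3.70 ± 1.16, 1.19 ± 0.973, 1.07 ± 0.438 and 3.44 ± 1.40 FPKM. These were named after their values were seen.

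**Figure D2:**
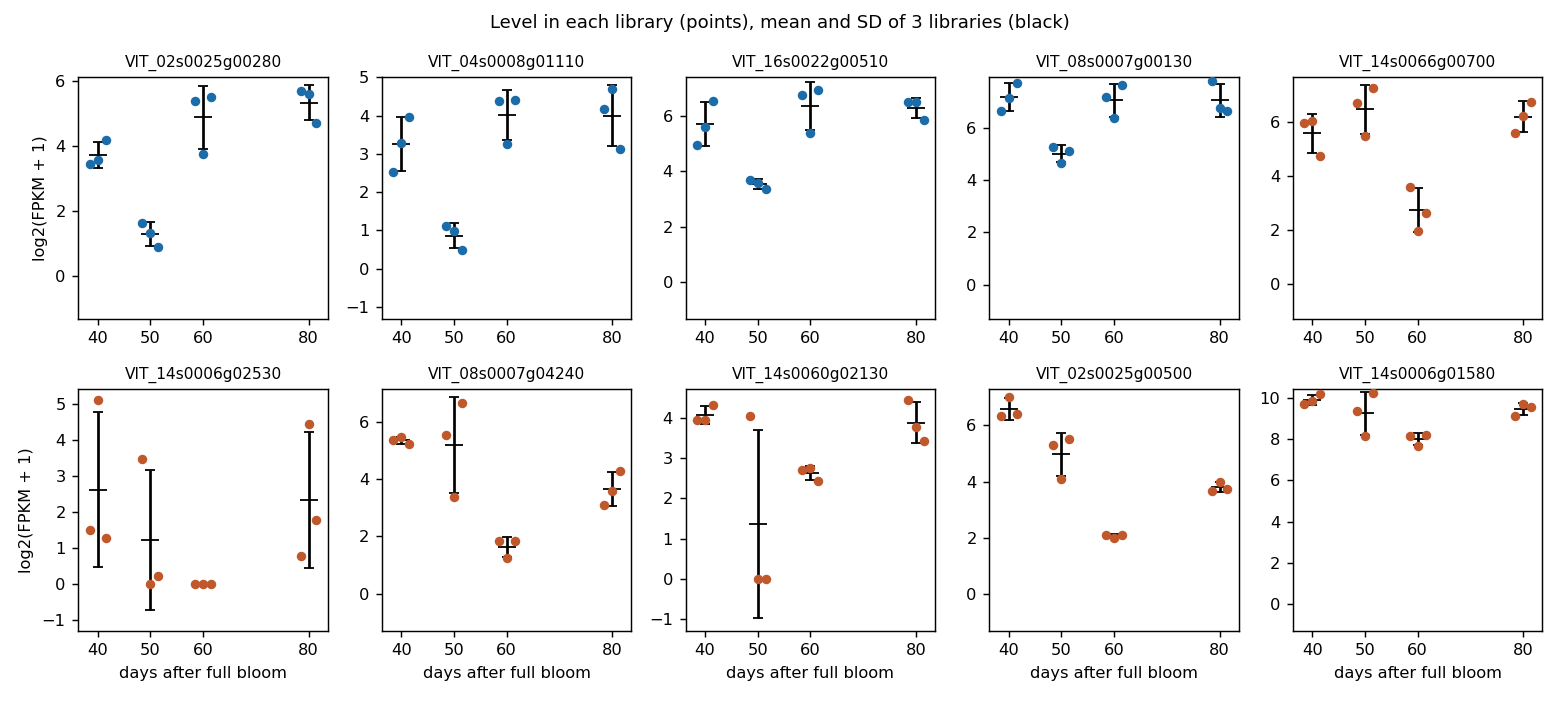
log2(FPKM + 1) of 10 gene models against days after full bloom, one panel each with its own vertical scale. Points are the 3 libraries of an age in the order a, b, c, and black marks are their mean ± SD; the first 4 panels (blue) are low at 50 days and the other 6 (orange) at 60 days.

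Members just inside the minimum drop of 1 were VIT_14s0060g01980 at 1.004, VIT_08s0040g02620 at 1.01 and VIT_14s0108g00450 at 1.02. Just outside were VIT_00s1569g00010 at 0.991, VIT_07s0031g01170 at 0.988 and VIT_01s0010g02290 at 0.987. VIT_14s0060g01980 averaged 116 ± 23.2, 70.5 ± 23.9, 29.1 ± 1.21 and 59.8 ± 8.65 FPKM at the 4 ages, while VIT_00s1569g00010 averaged 257, 109, 228 and 218 FPKM. In all, 887 further gene models with 3 FPKM at both ends had a non-overlapping low point at 50 or 60 days with a drop under 1.

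A linear model fitted with limma to all 14579 tested gene models gave the share of members that also met a call there. A call means a Benjamini-Hochberg adjusted p under 0.05 over all tested gene models and an absolute difference of 1 or more in log2(FPKM + 1). Of the 78, 65 were called lower at a middle age than at both end ages, a pattern called in 0.494% of all tested gene models. The choice of members used these contrasts, so nothing is read from the count. A further 7 gene models were called low in this way without being members, 3 because an end age averaged under 3 FPKM and 4 because libraries overlapped.

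The rule set no order between the 2 end ages, but it used their values, and which middle age lies below both ends depends in part on whether a gene model rises or falls over the whole course. The split of the calls by course is therefore partly fixed by the choice and is given as a description. Of the 30 gene models low at 50 days, 7 rose and 0 fell at 80 days relative to 40 days. Of the 46 low at 60 days, 0 rose and 12 fell, and neither of the 2 low at both ages was called (limma, adjusted p under 0.05 and a difference of at least 1). At an unadjusted p under 0.05 and any size of difference, 9 of the 30 were higher and 2 lower at 80 days, and 0 of the 46 were higher and 15 lower. Of the 14579 tested gene models, 4666 were higher and 4757 lower at that threshold, 64.6% in all. Over all members this made 7 rises, or 8.97% of the 78, against 6.95% of all tested gene models, and 12 falls, or 15.4%, against 14.0%. Both of these pooled shares are near the background. By course, 23.3% of those low at 50 days rose, against 6.95%, and 26.1% of those low at 60 days fell, against 14.0%. At an unadjusted p under 0.05 (limma), 9 of the 78 were higher and 18 lower, a smaller share than the 64.6% of all tested. The tested gene models include some under 3 FPKM at an end age, which the choice left out. Shares without these were not computed. The median difference of 80 minus 40 days was 0.58 in gene models low at 50 days and -0.43 in those low at 60 days, beside 0.00 over all tested. Positive differences numbered 20 of 30 in the first course and 10 of 46 in the second. The difference between the courses was not tested. Without 80-day replicate a, 7 members fell instead of 12, and 9 rose.

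The 3 largest rises were in gene models low at 50 days. VIT_01s0146g00150 had 41.7, 68.9 and 14.7 FPKM at 80 days, against 4.07, 5.36 and 14.5 FPKM at 40 days, and 1.82, 1.30 and 2.60 FPKM at its low point. Its 80-day libraries all lay above those of 40 days, the lowest only just, and the difference was 2.19 ± 0.66 (log2, SE; limma adjusted p = 0.0138). Without 40-day replicate a it was 1.86 (adjusted p = 0.0525) and without 80-day replicate b 1.71 (adjusted p = 0.0586), neither of which passed. VIT_16s0050g01150 had 9.54, 27.0 and 12.2 FPKM at 80 days, against 2.49, 2.12 and 6.18 FPKM at 40 days, with no overlap (1.88 ± 0.43, limma adjusted p = 0.0028). VIT_11s0037g00510 had 36.5, 252 and 93.3 FPKM at 80 days, against 19.3, 27.6 and 31.5 FPKM at 40 days (1.86 ± 0.52, limma adjusted p = 0.00977). Replicate b holds much of this last rise, which was 1.16 without it (adjusted p = 0.0207).

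The 3 largest falls were in gene models low at 60 days. VIT_02s0025g00500 had 11.6, 14.9 and 12.3 FPKM at 80 days, against 78.3, 129 and 83.99 FPKM at 40 days. The difference was -2.78 ± 0.31 (limma adjusted p = 2.5e-05), and its low point at 60 days was tight, at 3.31, 2.96 and 3.33 FPKM. VIT_13s0019g02180 had 48.0, 113 and 90.6 FPKM at 80 days, against 299, 298 and 308 FPKM at 40 days (-1.92 ± 0.31, limma adjusted p = 0.000304), after 27.5, 25.1 and 27.1 FPKM at 60 days. Both gene models returned only part of the way. Grape_newGene_1996 had 1.61, 13.4 and 1.53 FPKM at 80 days, against 9.33, 27.7 and 15.9 FPKM at 40 days, so that its libraries overlapped (-1.91 ± 0.68, limma adjusted p = 0.0303). This call was lost without 40-day replicate b (adjusted p = 0.108), 40-day replicate c (0.0645), 80-day replicate a (0.106) or 80-day replicate c (0.116). It was also lost with a pseudocount of 0.1 (0.0658), with no filter on low values (0.0508) and in a fit of only the 2 ages compared (0.056).

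All 80-day libraries lay above or below all 40-day libraries in 24 of the 78, or 30.8%, beside 65.5% of all tested gene models. The choice used the 40-day and 80-day values and left out gene models that only rise or fall. It also left out those under 3 FPKM at an end age, which the 65.5% includes, so the share is a description. Beside it also stands the wider spread between libraries of an age in these gene models, described further on. The part of either in this count was not tested.

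The step between the middle ages is partly fixed by the choice, since one of them had to be low, and is given as a description. From 50 to 60 days 20 of the 30 gene models low at 50 days were called higher and 18 of the 46 low at 60 days were called lower, with no call in the opposite direction (limma). At an unadjusted p under 0.05 there was likewise none in the opposite direction, with 24 of the 30 higher and 29 of the 46 lower. Over all tested gene models 1.15% were called higher and 2.53% lower at 60 than at 50 days, and at an unadjusted p under 0.05 there were 2393 higher and 2323 lower, 32.3% in all. The largest differences of 60 minus 50 days were 3.59 in VIT_02s0025g00280, 3.15 in VIT_04s0008g01110 and 2.81 in VIT_16s0022g00510. In the other direction they were -3.76 in VIT_14s0066g00700, -3.54 in VIT_08s0007g04240 and -2.89 in VIT_02s0025g00500.

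**Figure D3:**
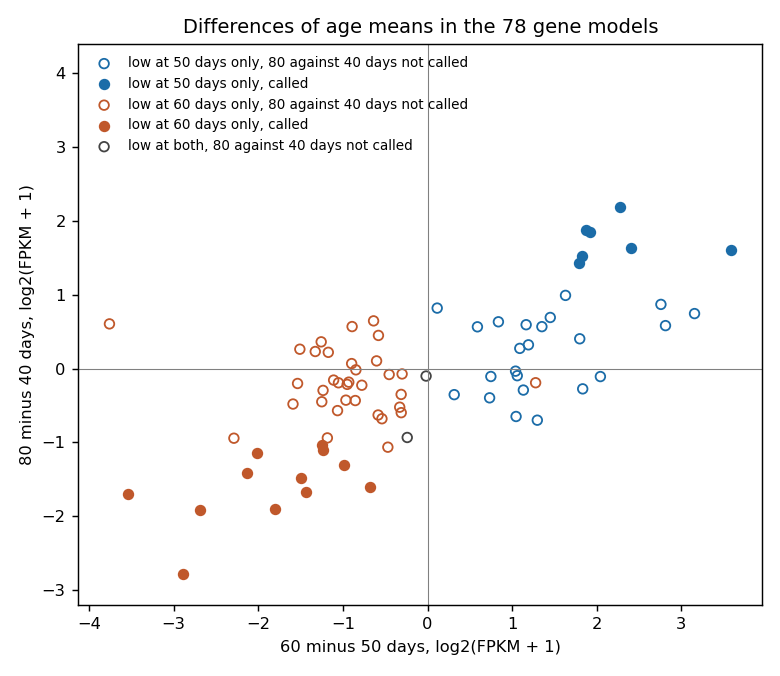
Difference of 80 minus 40 days (vertical) against 60 minus 50 days (horizontal) in log2(FPKM + 1) for each of the 78 gene models. Filled points were called between 80 and 40 days: 7 rises, all among gene models low at 50 days (blue), and 12 falls, all among those low at 60 days (orange).

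Members had a wide spread between libraries of the same age. The range between the highest and lowest library had medians of 0.75, 0.66, 0.58 and 0.85 (log2) over the 78 for 40, 50, 60 and 80 days in order. For all tested gene models with 3 FPKM at both ends the medians were 0.23, 0.24, 0.23 and 0.29. Where the rule favours closely spaced libraries, at the low age, the median range was 0.46 in gene models low at 50 days and 0.48 in those low at 60 days. A choice of large differences between means also favours gene models with a large spread, so these ranges are a description.

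The libraries of an age differed in the same direction across many members. At 40 days replicate a was the lowest library in 53 of the 78, or 67.9%, against 36.4% of all tested gene models with 3 FPKM at both ends. At 50 days replicate b was the lowest in 37 of the 46 gene models low at 60 days, or 80.4%, against 39.0%. At 60 days replicate b was the lowest in 20 of the 30 gene models low at 50 days, or 66.7%, against 34.4%. At 80 days replicate b was the highest in 39 of the 78, or 50.0%, against 25.5%. In gene models low at 60 days, the median deviation of 50-day replicate b from its age mean was -0.39, against 0.23 for replicate a and 0.22 for replicate c. Thus, within 50 days, replicate b was the library nearest to the 60-day level in these gene models. In those low at 50 days, 60-day replicate b deviated by -0.34 and so was the nearest to the 50-day level, against 0.22 for replicate a and 0.26 for replicate c. The deviations of the 12 libraries had medians between -0.02 and 0.04 over all tested gene models with 3 FPKM at both ends. What sets the libraries apart in these gene models was not tested.

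**Figure D4:**
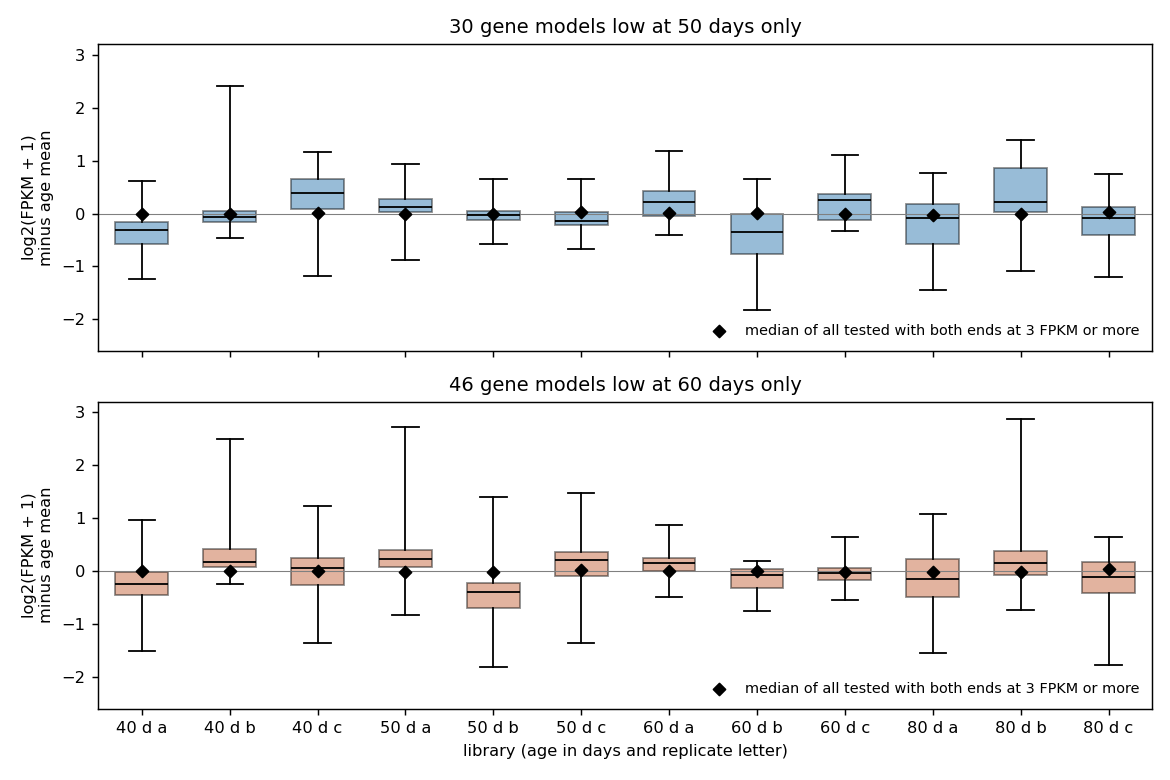
Deviation of each library from the mean of its age in log2(FPKM + 1), for the 30 gene models low at 50 days only (top) and the 46 low at 60 days only (bottom). Boxes span the quartiles with the median, whiskers reach the extremes, and diamonds are the medians of all tested gene models with at least 3 FPKM at both end ages, which lie near 0; the lower panel shows 50-day replicate b below the other 50-day libraries.

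In some members a single library carried an end age. At 80 days replicate b held at least 2 times the level of the next library in 14 of the 78, or 17.9%, against 0.856% of all tested gene models with 3 FPKM at both ends. At 40 days replicate b did so in 5 members, or 6.41%, against 0.539%, and replicate c in 4, or 5.13%, against 0.177%. Such uneven libraries were not only of replicate b. Any library did so in 12.8%, 16.7%, 11.5% and 21.8% of members at 40, 50, 60 and 80 days. The shares over those gene models were 1.17%, 1.01%, 0.921% and 1.95%. In 4 members replicate b stood out in this way at both ages, which was so in 16 of the 10754 gene models. They were VIT_00s0323g00070, VIT_08s0007g00330, VIT_14s0006g02530 and VIT_14s0060g00900, of which the first and the second were named after their values were seen. VIT_14s0006g02530 had 1.81, 33.8 and 1.41 FPKM at 40 days, 10.1, 0 and 0.171 FPKM at 50 days, was listed at 0 in every 60-day library, and had 0.719, 20.7 and 2.43 FPKM at 80 days. VIT_00s0323g00070 had 2.003, 14.6 and 3.30 FPKM at 40 days, at most 0.0769 FPKM at 60 days, and 0.811, 27.4 and 0.132 FPKM at 80 days. VIT_14s0060g00900 was less extreme, with 18.5 FPKM at 80 days and 18.8 FPKM at 40 days in replicate b and 4.41 to 6.44 FPKM in the other libraries of those ages. VIT_08s0007g00330, low at 50 days, had 0.666, 19.8 and 0.728 FPKM at 40 days and 0.608, 0.219 and 0.133 FPKM at 50 days. At 80 days it had 2.30, 16.5 and 5.33 FPKM. Its 40-day replicates a and c were thus only just above 50-day replicate a. Without replicate b of both ages, a choice made after seeing the data, 66 of the 78 still met the rule and 15 others joined. Of the 4 gene models, only VIT_14s0060g00900 remained. The letters are not known to link libraries of different ages.

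The members were spread over the table. They were grouped by the first number in a VIT_ identifier. The 78 included 10 identifiers of group 14, or 12.8%, against 6.26% of the tested gene models. Group 08 held 9, or 11.5%, against 6.32%, and group 02 held 6, or 7.69%, against 3.88%. Every other group held from 1 to 6. Gene models labelled as new numbered 2, or 2.56%, against 2.28% of those tested and 1.28% of those with 3 FPKM at both ends. The VIT_ members fell in 50 identifier blocks, with at most 7 in one block, VIT_08s0007. These shares were not tested.

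Only 2 sets of members were next to each other in the order of the identifiers listed, and all 4 gene models were low at 60 days. The numbers of the VIT_09s0002 set lie further apart than those of the VIT_17s0000 set, so unlisted identifiers may lie between them. VIT_17s0000g02140 averaged 69.8 ± 8.02, 41.0 ± 9.68, 24.0 ± 8.01 and 60.6 ± 15.9 FPKM at 40, 50, 60 and 80 days (SD, n = 3 each). Its neighbour VIT_17s0000g02150 followed it at a lower level, with 7.96 ± 1.84, 4.44 ± 1.09, 2.04 ± 0.789 and 5.75 ± 2.18 FPKM. Among the 60-day libraries of both, replicate a was the highest and c the lowest, with 31.5, 24.9 and 15.5 FPKM in the first and 2.76, 2.15 and 1.20 FPKM in the second for replicates a, b and c. VIT_09s0002g06400 averaged 129 ± 27.7, 68.6 ± 10.0, 34.5 ± 1.88 and 97.8 ± 32.9 FPKM, and VIT_09s0002g06430 averaged 164 ± 7.08, 80.3 ± 18.8, 64.9 ± 16.0 and 157 ± 22.2 FPKM. Whether neighbours share sequence, so that reads could be divided between them, could not be checked without their sequences.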

How the data were processed

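The deposited table holds FPKM values made by the authors, with 22580 identifiers and 12 libraries. The submitters' processing notes list Trimmomatic 0.36, TopHat2, Cufflinks, FastQC and edgeR without saying what each did. Genome build, annotation and filters: not given in the sources used here. Each column was matched to its sample by the library code in the labels. Depth is unknown, so no counting interval is given.

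Values were transformed to log2(FPKM + 1). Gene models with at least 1 FPKM in at least 3 libraries were tested (14579, all 78 members among them). limma 3.58.1 (R 4.3.3) fitted a mean per age to all 12 libraries with a trended prior variance, and p-values were adjusted by Benjamini-Hochberg over all tested gene models. The fit was run on simulated independent normal values, with changes only in gene models of mean log2(FPKM + 1) over 3. That simulation does not speak for uneven libraries or very weakly expressed members. The members, tests and alternatives were chosen with earlier results of these data known. Named gene models were the 6 largest drops by lowest middle age (50 or 60 days), the 4 most abundant members, the 3 largest differences each way (80 minus 40 and 60 minus 50 days), the 3 on each side of the minimum drop, and adjacent members. Others are marked as named later. Gene groups by product name were planned, but no identifier carried a name. Alternatives were other pseudocounts, filters, scalings, thresholds and left-out libraries.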

Additional observations from a re-analysis of the deposited data

How the results depend on the processing

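The number of members depended on the minimum drop: 26 gene models met the rule with a drop of 1.5 and 151 with 0.7. The other settings gave 57 to 114, and leaving out each library gave 76 to 94, of which 69 to 78 were among the 78. Leaving out a library also loosens the rule on overlap. Calls between 80 and 40 days numbered 15 to 26 over the settings and 15 to 21 over left-out libraries. Calls between 60 and 50 days numbered 35 to 43 and 29 to 39. Members called below both ends numbered 50 to 68 and 50 to 60. No member called in the 2 comparisons turned direction. Single differences were repeated for every member called between 80 and 40 days, but for 60 minus 50 days only for the 3 largest each way. Of these 549 repeats, 505 kept their call and 44 fell short of it. All 44 concerned differences of 80 minus 40 days, with up to 14 in a single gene model. Grape_newGene_1996 and VIT_08s0007g04240 had 7 each. Calls between 60 and 50 days were also lost among the 38 members called there. Without 50-day replicate c, 28 of the 38 were kept, the fewest of any setting. With a mean per age, leaving out a 50-day or 60-day library cannot move the size of the 80 minus 40 day difference, only its p-value. Leaving out the minimum difference can only keep or add calls. Quantile normalization moved the median 80 minus 40 day difference of all gene models to 0.12, and removal of the 10 most abundant to 0.11. With the replicate block, 18, 37 and 57 members were called in the 3 counts above, beside 19, 38 and 65 without it. The letters showed no clear pairing over all tested gene models. Libraries with the same letter had deviations correlated from -0.298 to 0.249, over 0.1 in 4 of 18 pairs. Those with different letters had -0.247 to 0.408, over 0.1 in 7 of 36 pairs. The members alone were not checked in this way. Without read depth, counting error in weakly expressed members cannot be separated from other spread.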
